A study of Mus musculus with 8 samples.

Results

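The regulators of G-protein signalling (RGS) described here are 10 mouse genes, Rgs2, Rgs3, Rgs4, Rgs5, Rgs7, Rgs8, Rgs10, Rgs16, Rgs17 and Rgs19, of 38355 genes counted. They were taken by symbol, and the family was chosen by the fall of Rgs4 in these libraries, so knockout and wild-type levels of the 10 genes are given as a description. The edgeR values printed for them come from the contrast that chose the family and support nothing. RNA was sequenced from C57Bl6 mouse embryos at embryonic day E11.5, from thoracic dorsal root ganglia, which hold the sensory neurons of the trunk, with the spinal cord beside them. Wild-type embryos (WT, 4 libraries, where the series text speaks of 3 per group) were set against Prdm12-/- embryos (KO, 4 libraries), which lack a zinc-finger transcription factor of developing sensory neurons. The sources used here do not say which part of Prdm12 was removed, or whether a library came from 1 embryo or from a pool.

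A receptor that couples to G proteins makes the alpha subunit exchange GDP for GTP, and the signal lasts until that GTP is hydrolysed. Proteins with an RGS domain bind the active alpha subunit and speed up the hydrolysis, so they shorten and weaken the signal. The R4 subfamily (here Rgs2, Rgs3, Rgs4, Rgs5, Rgs8 and Rgs16) consists mostly of small proteins with little beyond the RGS domain. The R7 subfamily (Rgs7) works in a complex with the beta subunit encoded by Gnb5, and Rgs10 belongs to the R12 and Rgs17 and Rgs19 to the RZ subfamily. In the nervous system these proteins act mainly on the Gi/o and Gq classes, through which opioids, glutamate, GABA and monoamines modulate neurons.

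The proteins of Rgs4, Rgs5 and Rgs16 are known substrates of the Arg/N-degron pathway, in which an exposed cysteine at the second position marks a protein for degradation. The coding sequence shows which genes carry that residue, so the first 30 coding bases of these 3 genes and of 2 R4 relatives are given below, 5′ to 3′, from GENCODE M21 transcripts, with the second codon in capitals.
Rgs4: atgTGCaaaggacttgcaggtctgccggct
Rgs5: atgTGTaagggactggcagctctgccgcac
Rgs16: atgTGCcgcaccctagccaccttccccaac
Rgs8: atgGCTgccttactgatgccacgcaggaac
Rgs2: atgCAAagtgccatgttcctggctgtccag
TGC and TGT both encode cysteine. Of 20 RGS genes read in this way, these 3 had a cysteine codon there in any transcript with a complete coding sequence. In these libraries the log2 fold changes of KO over WT for the 3 were −0.90, 0.41 and 0.00, in that order. They are RNA values, and the amount and degradation of the proteins were not measured.

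Rgs4 and Rgs5 are neighbours. Rgs5 (ENSMUSG00000026678) lies on the plus strand of mm10 chromosome 1 from 169655501 to 169695813. Rgs4 (ENSMUSG00000038530) lies on the minus strand from 169741477 to 169747642, 45663 bp beyond it, so their last exons face each other. The RefSeq windows around their starts, 250 bases before to 50 after, are shown because the neighbours, whose log2 fold changes had opposite signs, can be compared there. Capitals mark TATAAA, the core of a TATA element, searched on the strand of the gene. The Rgs4 window is chr1:169747593-169747892 on the minus strand and the Rgs5 window chr1:169655251-169655550 on the plus strand, both GRCm38.p6.
Rgs4: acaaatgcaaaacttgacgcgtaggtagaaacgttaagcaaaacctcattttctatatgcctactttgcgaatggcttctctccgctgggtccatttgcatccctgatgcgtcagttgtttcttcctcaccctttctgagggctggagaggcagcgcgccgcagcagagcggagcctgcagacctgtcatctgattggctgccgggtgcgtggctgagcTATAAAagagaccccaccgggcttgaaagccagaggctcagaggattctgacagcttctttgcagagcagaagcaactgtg
Rgs5: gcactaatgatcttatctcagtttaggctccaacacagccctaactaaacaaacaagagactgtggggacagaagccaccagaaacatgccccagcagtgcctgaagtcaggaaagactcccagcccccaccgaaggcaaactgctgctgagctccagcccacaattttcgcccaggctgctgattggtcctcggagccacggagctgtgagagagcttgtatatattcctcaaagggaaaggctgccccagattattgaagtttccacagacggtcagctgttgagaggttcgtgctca
In Rgs4 the element begins 31 bases before the annotated start. The motif was present in 8.3% of 32851 promoter windows of this length, and of the 10 genes Rgs4 and Rgs3 held it. In the Rgs3 windows it began at −100 and −177 relative to the annotated start. Only these exact letters were searched. The Rgs5 window holds the similar letters tatatatt, which the search did not cover, so it does not show that Rgs5 lacks a TATA element. The letters TGACG, part of a cAMP response element, were searched on both strands and occurred 2 times in the Rgs4 window and 0 times in that of Rgs5, against at least once in 20.8% of all windows. They also occurred 2 times in the Rgs2 window and once in 1 window of Rgs8, so 3 of the 15 windows of the 10 genes held them. The full element TGACGTCA (1.8% of all windows) and the homeodomain core TAATTA (5.3%) occurred in 0 of the 15 windows of the 10 genes. The E-box letters CANNTG, read once per position since they are their own complement, occurred 5 times in the Rgs4 window and once in that of Rgs5, and were present in 72.3% of all windows.

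Library totals were 23088908 to 28500792 counts in 7 libraries and 67782435 in WT replicate 1. Prdm12 itself stood between 22.2 and 39.6 CPM (read counts relative to the library total, corrected by TMM) in WT and between 0.962 and 1.55 CPM in KO, in the direction its labels give. Across 16068 tested genes, edgeR's quasi-likelihood test with Benjamini-Hochberg adjustment called 48, or 0.299%, at a threshold of 0.05, with 39 lower and 9 higher in KO. WT replicate 1 also stood apart in content, since the summed CPM of 9 sensory neuron markers was 423.5 there and 545.5 to 576.4 in the other WT libraries.

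Rgs4, a brake on Gi/o and Gq signals in many neurons, was lower in every KO library than in any WT library. Replicates 1 to 4 gave 36.6, 53.2, 54.3 and 49.2 CPM for WT, then 23.8, 29.1, 27.6 and 23 CPM for KO. The WT library nearest to the KO range was replicate 1, and the KO libraries lay close together. Rgs4 averaged 48.3 ± 8.11 CPM for WT and 25.9 ± 2.94 CPM for KO (± SD, n = 4 each). Rgs4 fell by 0.90 on the log2 scale (SE 0.13, edgeR adjusted p = 0.0208), to 0.538 of the WT level. In such mixed tissue, fewer cells of a type and less RNA per cell cannot be told apart. This is the value that drew attention to the family. Without WT replicate 1 the log2 fold change was −1.0 (adjusted p = 8.31e-05), while leaving out any 1 of the other 7 libraries ended the call, with log2 fold changes from −0.96 to −0.83 and adjusted p from 0.056 to 0.112.

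Rgs4 was the called gene among the 10, lower in KO, where 0.243% of all tested genes were called lower, and the other 9 did not pass. All 10 passed the filter on low counts, with 109 to 2823 counts per library. The groups did not overlap for Rgs4 and Rgs8, 2 of the 10 and both lower in KO, against 2.45% of all tested genes with that direction and 4.14% with either, and the choice of the family used this same contrast. The median log2 fold change of the 10 was 0.01, beside −0.003 for all tested genes. For 5 of them (Rgs2, Rgs3, Rgs7, Rgs16 and Rgs19) the log2 fold change lay within 0.05 of 0.

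**Figure D1:**
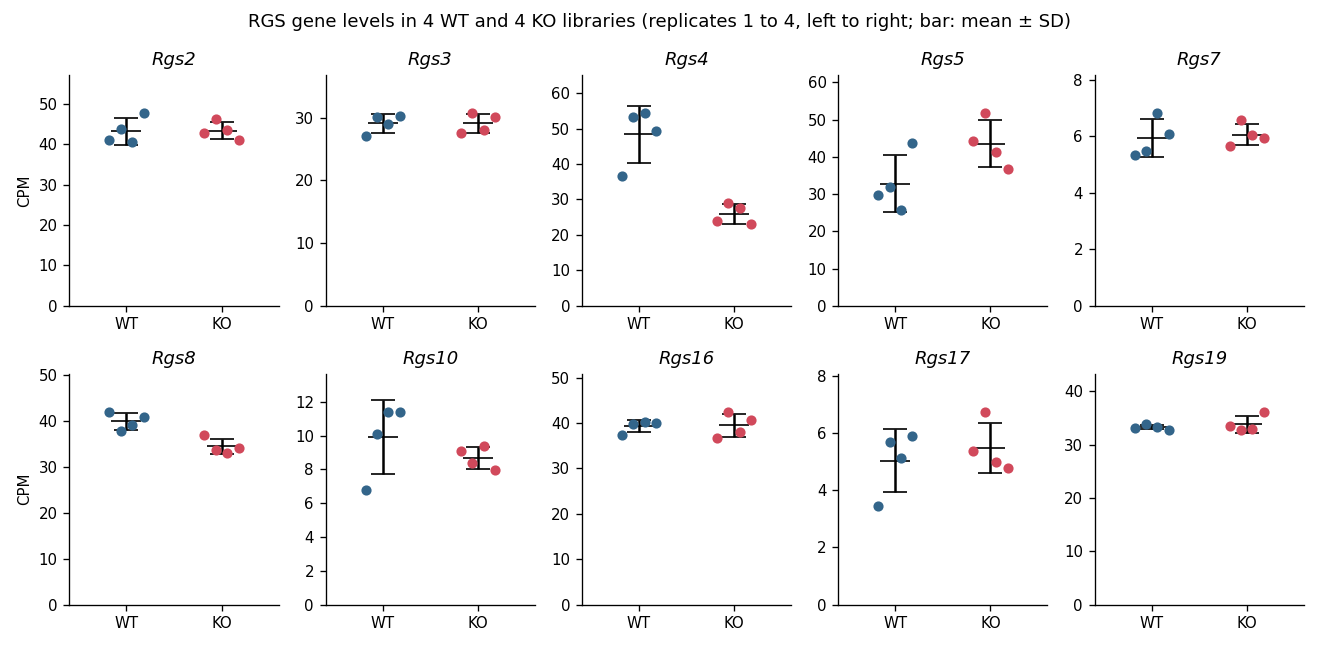
Each panel shows the CPM of 1 RGS gene (y axis, starting at 0) in WT and KO libraries, with points for replicates 1 to 4 from left to right and bars for the mean ± SD. Rgs4 is at 36.6 to 54.3 CPM in WT against 23 to 29.1 CPM in KO, and Rgs8 is the other gene whose groups do not overlap.

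Among the R4 relatives of Rgs4, Rgs5, best known as a marker of pericytes, had values on the other side. Replicates 1 to 4 gave 29.8, 31.8, 25.8 and 43.7 CPM for WT, then 44.2, 51.7, 41.4 and 36.7 CPM for KO. The groups overlapped through WT replicate 4, which was above KO replicates 3 and 4. The log2 fold change was 0.41 (SE 0.16) and did not pass. Of 7 tested pericyte markers 0 passed, with 0 at an unadjusted p under 0.05 and 0 called by DESeq2. Their median log2 fold change was 0.05, and with Higd1b, which was under 1 CPM in every library, their summed level was 409.4 to 471.8 CPM in WT against 410.6 to 500.4 CPM in KO.

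Rgs8, known from Purkinje cells of the cerebellum, was slightly lower in KO. Its levels were 41.9, 37.7, 39.0 and 40.9 CPM in WT against 36.9, 33.7, 33.1 and 34.1 CPM in KO. Every KO library was below every WT library, by as little as the step from 37.7 to 36.9 CPM. The log2 fold change was −0.21 (SE 0.06) and did not pass. Rgs16, a gene induced by many stimuli, had 37.3, 39.7, 40.3 and 40 CPM in WT against 36.8, 42.4, 38.0 and 40.6 CPM in KO. Its groups lay on top of each other, with a log2 fold change of 0.00 (SE 0.06). Rgs8 lies 40025 bp upstream of Rgs16 on the same strand of chromosome 1.

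Rgs2 and Rgs3 had log2 fold changes at or next to 0. Rgs2, which acts preferentially on Gq, had 40.5 to 47.7 CPM in WT against 41.2 to 46.2 CPM in KO (log2 fold change 0.01, SE 0.06). Rgs3, which has long isoforms, among them one that links ephrin-B to G-protein signals, had 27.0 to 30.2 CPM in WT against 27.5 to 30.7 CPM in KO (0.00, SE 0.06). Rgs3 overlaps Gm11209 on the other strand, and whether counting used strand is not given in the sources used here, so their reads cannot be told apart with certainty.

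Outside the R4 subfamily none of the 4 genes passed. Rgs10, an R12 protein best known from microglia and other immune cells, had 6.79, 10.1, 11.4 and 11.4 CPM in WT against 9.07, 8.37, 9.41 and 7.96 CPM in KO. WT replicate 1 was the lowest of all 8 libraries and the other 3 WT libraries were above every KO library, with a log2 fold change over all libraries of −0.18 (SE 0.15). Without WT replicate 1 it was −0.33, and it did not pass there either. Macrophage markers (6 tested, 0 passing with edgeR or DESeq2, 0 at an unadjusted p under 0.05) summed to 42.5 to 51.9 CPM in WT against 44.6 to 51.3 CPM in KO. Rgs10 overlaps Gm15503, annotated on the same strand.

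Rgs7, the R7 protein that pairs with the product of Gnb5, had 5.33 to 6.82 CPM in WT against 5.67 to 6.57 CPM in KO (log2 fold change 0.03, SE 0.11). Of the RZ genes, Rgs17 had 3.45 to 5.88 CPM in WT against 4.77 to 6.73 CPM in KO (0.14, SE 0.18), and without WT replicate 1 its log2 fold change was −0.02. Rgs19, whose product binds the adaptor GIPC, had 32.8 to 33.9 CPM in WT against 32.7 to 36.1 CPM in KO (0.02, SE 0.05). Rgs19 had the narrowest spread of the 10 in WT, with a coefficient of variation of 1.3%, and Rgs5 the widest with 23.5%. Rgs4 was at 16.8% in WT and 11.4% in KO.

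**Figure D2:**
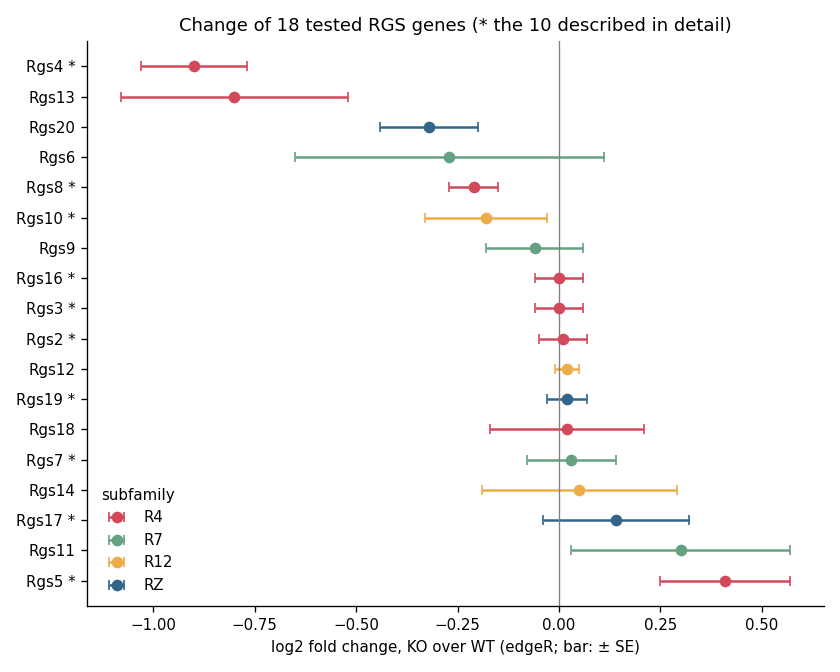
The x axis is the log2 fold change of KO over WT from edgeR with bars of ± SE for 18 tested RGS genes, coloured by subfamily and with the 10 genes described in detail starred. Rgs4 is at −0.90 and Rgs5 at 0.41, and 5 of the starred genes lie within 0.05 of 0.

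Read within a library, Rgs4 was lower in KO against each of the 9 paralogues described here. These log2 ratios are of length-scaled levels and do not depend on how libraries are scaled to each other. Against Rgs16 the log2 ratio was −0.43, 0.02, 0.03 and −0.11 for WT replicates 1 to 4, then −1.03, −0.94, −0.87 and −1.22 for those of KO. Rgs4 and Rgs16 were thus about equal in 3 WT libraries and Rgs4 was the lower in all 4 KO libraries. Against its neighbour Rgs5 the ratio was 0.85, 1.29, 1.63 and 0.73 in WT and −0.34, −0.27, −0.03 and −0.12 in KO, so that by exon length the order of the pair turned in every KO library. Where a ratio stands relative to 0 rests on annotated exon length (3098 bp for Rgs4, 4546 bp for Rgs5). Its difference between KO and WT does not. The KO minus WT difference in the log2 ratio ranged from −1.31 (Rgs5) to −0.68 (Rgs8). The groups overlapped for 0 of the 9 ratios. Against the 8 other tested RGS genes, 5 ratios did not overlap. Those to Rgs6, Rgs13 and Rgs20 did, with KO minus WT differences of −0.47, −0.11 and −0.58. All these ratios share the counts of Rgs4, so they repeat its values and are not separate observations.

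**Figure D3:**
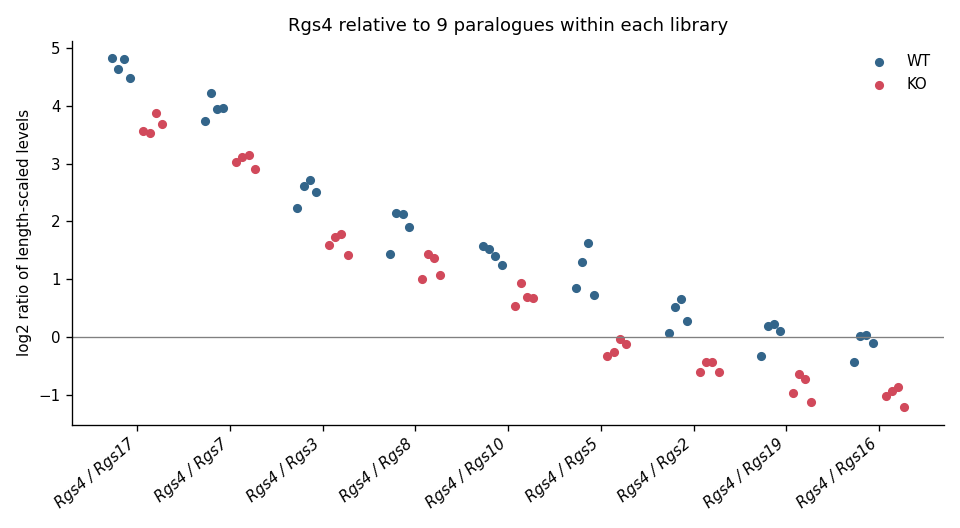
For each of 9 paralogues the y axis gives the log2 ratio of the length-scaled level of Rgs4 to that of the paralogue, with 1 point per library (replicates 1 to 4 from left to right). The KO points lie below the WT points in all 9 columns. Against Rgs5, scaled by exon length, the points pass from above 0 in WT to below 0 in KO.

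Per length, the WT mean of Rgs4 came in place 3 of 18 tested RGS genes, with a range that reached those of places 2 to 5. In FPKM (CPM per kilobase of annotated exon), the order of WT means began with Rgs12 at 18.2 ± 0.106, Rgs16 at 16.8 ± 0.58, Rgs4 at 15.6 ± 2.62 and Rgs19 at 14.9 ± 0.193 (SD, n = 4 each). Rgs12 lay above Rgs16 in the 4 WT libraries. The range of Rgs4 (11.8 to 17.5 FPKM) overlapped those of Rgs16 (15.9 to 17.2), Rgs19 (14.7 to 15.2) and Rgs2 (11.2 to 13.2), so its place among them is not resolved. Next came Rgs2 (11.9 ± 0.917), Rgs5 (7.21 ± 1.69), Rgs10 (5.80 ± 1.27), Rgs8 (4.13 ± 0.198) and Rgs3 (2.69 ± 0.139), with overlap between Rgs5 and Rgs10 and between Rgs10 and Rgs8. Rgs7 (0.986 ± 0.112 FPKM) and Rgs17 (0.607 ± 0.133 FPKM) were the lowest of the 10, with Rgs17 overlapping its neighbours in the order, Rgs20 and Rgs18. In KO Rgs4 stood at 8.36 ± 0.949 FPKM, in place 6, below Rgs5 at 9.57 ± 1.38 FPKM.

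The order rests on exon length. With coding length in its place Rgs4 came first in WT and Rgs8, whose annotated exons add up to 9640 bp for a coding length of 540 bp, moved from place 8 to place 2. As a share of the summed FPKM of the 10 genes, Rgs4 made up 16.3%, 20.8%, 21.5% and 18.5% for WT replicates 1 to 4, then 10.5%, 11.8%, 12% and 10.2% for those of KO. The share of Rgs5 was 8.91 ± 1.75% in WT and 12.7 ± 1.38% in KO (SD, n = 4 each). Shares of 1 sum are not independent of each other, and a lower Rgs4 raises the others.

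**Figure D4:**
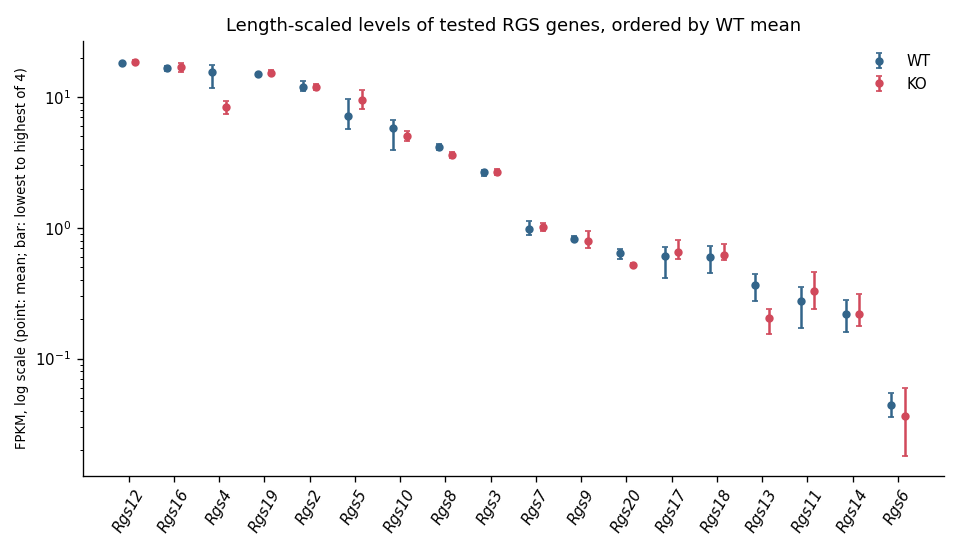
FPKM on a log axis for 18 RGS genes ordered by the WT mean, with points for the mean and bars from the lowest to the highest of 4 libraries in WT and KO. Rgs4 goes from 15.6 FPKM in WT to 8.36 FPKM in KO and the bars of the 2 groups do not meet.

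The other RGS genes, 8 tested of 10 listed, gave no call in edgeR, DESeq2 or limma-voom. DESeq2 gave no adjusted p for Rgs6 and Rgs13, so it did not decide on them. At an unadjusted p under 0.05, 2 of these 8 were lower and 0 higher, beside 3.32% and 3.03% of all tested genes, and the median log2 fold change was −0.02. Rgs13, an R4 gene known from lymphocytes and mast cells, was below 1 CPM throughout, with 0.602 ± 0.158 CPM in WT against 0.335 ± 0.0632 CPM in KO (± SD, 4 libraries each; log2 fold change −0.80, SE 0.28, edgeR adjusted p = 0.618). Rgs20, the RZ gene whose product acts on Gz, had 2.72 ± 0.198 and 2.19 ± 0.0666 CPM (log2 fold change −0.32, SE 0.12, adjusted p = 0.682). Neither Rgs13 nor Rgs20 had overlapping groups. With Rgs4 and Rgs8 that made 4 of the 18 tested RGS genes, all lower in KO, against 2.45% of all tested genes. Rgs12, the largest R12 protein with the highest WT mean per exon length here but place 7 by coding length, had 154.5 ± 0.898 CPM in WT against 156.9 ± 4.22 CPM in KO (log2 fold change 0.02, SE 0.03). The remaining tested genes Rgs6, Rgs9, Rgs11, Rgs14 and Rgs18 had log2 fold changes from −0.27 (Rgs6) to 0.30 (Rgs11). Rgs18, a gene of platelets and their precursors, had 1.22 ± 0.261 and 1.25 ± 0.185 CPM. Rgs1 did not pass the filter, and the level of Rgs21 was not analysed here.

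Of 127 tested genes of the wider pathway, 1 fell, 0 rose and 126 did not pass, or 0.787% called beside 0.299% of all genes, a share that rests on a single gene. These 127 include the 8 other tested RGS genes described above. At an unadjusted p under 0.05, 8 were lower and 3 higher, of 127, where 3.32% of all tested genes were lower and 3.03% higher. Rgs13 and Rgs20 are among the 8 that were lower. The median log2 fold change of the 127 was −0.013. The gene that fell was Grm2, a Gi/o-coupled metabotropic glutamate receptor, from 34.8, 28.4, 35.5 and 34.9 CPM in WT replicates 1 to 4 to 20.9, 15.3, 17.4 and 17.4 CPM in KO (log2 fold change −0.91, SE 0.10, edgeR adjusted p = 0.00462). Its groups did not overlap, and its log2 fold change lay beside the −0.90 of Rgs4.

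Grm2 was 1 of 27 tested Gi/o-coupled receptors, of which 26 did not pass. At an unadjusted p under 0.05, 5 of them were lower and 1 higher, the latter Grm8 (log2 fold change 0.53, edgeR adjusted p = 0.623), beside 3.32% and 3.03% of all tested genes. Oprk1, the kappa opioid receptor gene, had 0.901 ± 0.172 CPM in WT against 0.361 ± 0.146 CPM in KO (± SD, 4 libraries each; log2 fold change −1.33, edgeR adjusted p = 0.133), close to 1 CPM and on few counts. Grm4, another metabotropic glutamate receptor gene, had 9.64 ± 0.203 and 7.73 ± 0.462 CPM (log2 fold change −0.32, adjusted p = 0.248). Adra2c, an alpha-2 adrenergic receptor gene named, like Grm8, after its values were seen, was called lower without WT replicate 1 (log2 fold change −1.14, adjusted p = 0.0465) and with limma-voom (log2 fold change −1.21, adjusted p of 0.0171 from its own fit) but not with all libraries in edgeR (−0.98, adjusted p = 0.31). Among 12 tested Gq-coupled receptors none passed, and the member with the smallest p was Chrm1 (log2 fold change 0.57, adjusted p = 0.813).

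Among the proteins that RGS members act on or with, no gene passed. None of 14 alpha subunits passed with edgeR or DESeq2, with 0 lower and 1 higher at an unadjusted p under 0.05, and their log2 fold changes ran from −0.17 to 0.21. The highest was Gnas, the stimulatory subunit gene, with 108.0 ± 10.2 CPM in WT against 124.6 ± 11.6 CPM in KO (adjusted p = 0.706). None of 15 beta and gamma subunits passed, with 0 at an unadjusted p under 0.05 and 0 called by DESeq2. Gnb5, the R7 partner, had 16.2 ± 0.771 and 17.7 ± 1.75 CPM (log2 fold change 0.13, adjusted p = 0.871). Rgs9bp, another R7 anchor, had 1.93 ± 0.174 and 1.6 ± 0.147 CPM (log2 fold change −0.26, adjusted p = 0.839). Rgs7bp, which anchors R7 complexes at the membrane, had 8.89 ± 2.53 and 7.02 ± 1.23 CPM (log2 fold change −0.32, adjusted p = 0.891).

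Of 7 receptor kinases and arrestins 0 passed with edgeR or DESeq2 and 1 was lower at an unadjusted p under 0.05, namely Arrb1, which encodes beta-arrestin-1 (143.8 ± 6.53 and 130 ± 4.26 CPM, log2 fold change −0.14, edgeR adjusted p = 0.476). Of 16 effectors (adenylyl cyclases, phospholipase C beta genes and GIRK channels) 0 passed in both tools, and 1 was higher at an unadjusted p under 0.05, the low-level Plcb2 (log2 fold change 0.39, adjusted p = 0.731). The 10 other proteins with an RGS-like domain, such as the axins, and the 7 exchange factors and GoLoco proteins gave 0 calls in both tools and 0 at an unadjusted p under 0.05. The same held for the 7 enzymes of the Arg/N-degron pathway, whose log2 fold changes lay between −0.06 and 0.02. Ate1, the arginyl transferase that tags the exposed cysteine after its oxidation, had 53.7 ± 0.84 CPM in WT against 52.1 ± 1.61 CPM in KO (± SD over 4 libraries each; edgeR adjusted p = 0.934).

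Around Rgs4, none of 8 tested genes within 500 kb passed. Rgs5 was the nearest. Hsd17b7, a gene of cholesterol synthesis that lies 201892 bp away, had 46.1 ± 5.07 CPM in WT against 35.4 ± 2.22 CPM in KO (± SD, 4 libraries each; log2 fold change −0.38, SE 0.08, edgeR adjusted p = 0.116). The other 6 (Ccdc190, Nuf2, 3110045C21Rik, Ddr2, Uap1 and Uhmk1) had log2 fold changes from −0.12 (Uhmk1) to 0.52 (Ccdc190, below 1 CPM).

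Over the 8 libraries the genes of at least 5 CPM (11829) whose log2 CPM was most like that of Rgs4 included Cdhr1, a cadherin-related gene (Pearson r = 0.987), the neurofilament gene Nefm (0.98), the potassium channel subunit gene Kcnmb2 (0.98) and Cnst (0.979). Cdhr1 and Kcnmb2 were called lower in KO, while Nefm (log2 fold change −0.29) and Cnst (−0.15) were not called. The r values describe 8 points in 2 groups that differ in Rgs4, so any gene that differs between the groups tends to score high. Of the 9 paralogues, Rgs8 was the most alike (r = 0.661, place 732) and Rgs5 the least (r = −0.558, place 11098). After each group's mean was subtracted, the highest were Prnd (0.986), Bmp4 (0.984), Pkd2 (0.984), Hoxc8 (0.981) and Gria1 (0.98), none of them called, and Rgs17 was the most alike of the paralogues (0.843). WT replicate 1, the deepest library, was the WT minimum for both Rgs4 and Rgs17.

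Marker lists of other cells gave the following beside Rgs4. Of 9 tested sensory neuron markers 2 fell, among them Pou4f1 (93.9 ± 9.37 CPM in WT against 65.3 ± 4.69 CPM in KO, ± SD over 4 libraries; log2 fold change −0.52, edgeR adjusted p = 0.0188), 0 rose and 7 did not pass. Over all tested genes edgeR called 0.243% lower and 0.056% higher. Unadjusted p was under 0.05 for 5 lower and 0 higher sensory markers, beside 3.32% and 3.03% of all tested genes. DESeq2 and limma-voom each called 3 of these 9 markers. Their summed level was 423.5 to 576.4 CPM in WT against 399.7 to 461.2 CPM in KO, with every marker found above 1 CPM in at least 1 library. Of 6 motor neuron markers Lhx3 rose (log2 fold change 0.56, adjusted p = 0.0169) and 5 did not pass, with 4 of the 6 log2 fold changes positive and 2 negative. Isl2 had the most negative of them (32.4 ± 3.82 CPM in WT against 24.1 ± 1.1 CPM in KO, groups without overlap; log2 fold change −0.42, adjusted p = 0.0916). Groups without overlap and lower in KO were found for 2.45% of all tested genes. Unadjusted p was under 0.05 for 1 lower and 2 higher motor neuron markers. The sum of the 6 was 100.1 to 112.0 CPM in WT against 107.4 to 122.7 CPM in KO. None of 6 pan-neuronal markers passed, and all 6 log2 fold changes were negative (median −0.16). At an unadjusted p under 0.05, 5 of them were lower, beside 3.32% of all tested genes. None of 5 neural progenitor markers passed, all 5 were negative (median −0.21), and 3 were lower at that p. Their sum was 1323 to 1560 CPM in WT against 1251 to 1293 CPM in KO. Of 5 crest and glia markers 1 was called lower, 4 had positive log2 fold changes and the median was 0.13. Among them 1 was lower and 1 higher at an unadjusted p under 0.05. None of 6 muscle and 7 sclerotome and mesenchyme markers passed, and all 13 had positive log2 fold changes, with medians of 0.28 and 0.15. Unadjusted p was under 0.05 for 4 of the muscle markers, all higher, and for 0 of the mesenchyme markers. Muscle markers summed to 439.8 to 534.3 CPM in WT against 495.0 to 715.8 CPM in KO, and mesenchyme markers to 1939 to 2632 and 2498 to 2814 CPM. With the mean log2 CPM of these 13 as a covariate, an alternative chosen after the data were seen, Rgs4 had a log2 fold change of −1.12 (SE 0.19) and was not called (edgeR adjusted p = 0.293). That mean was 6.58 to 6.77 in WT and 6.77 to 7 in KO, so it largely follows genotype. Over all genes the fit called 1 lower and 0 higher. The lost call therefore cannot separate these markers from genotype. The part of the other markers in the lower Rgs4 was not tested.

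Across 16 other ways of fitting, the log2 fold change of Rgs4 ran from −1.12 to −0.83, and 8 of them kept the call. The adjusted p ran from 1.26e-09 with DESeq2 to 0.293 with the marker covariate.

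**Figure D5:**
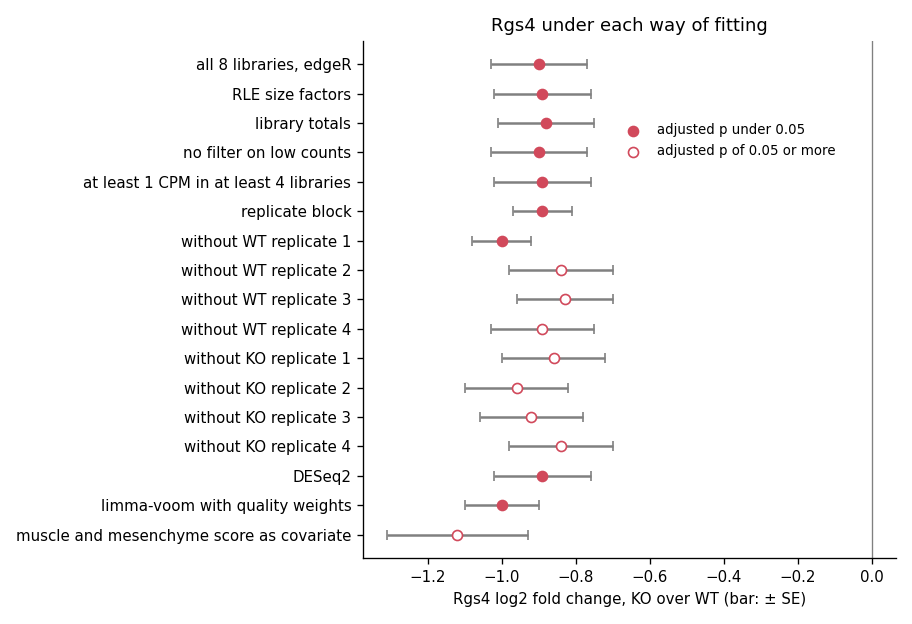
Log2 fold change of Rgs4 in KO over WT (x axis, bars of ± SE) from edgeR on all 8 libraries and from 16 alternatives, with filled points where the adjusted p is under 0.05 and open points where it is not. All points lie between −1.12 and −0.83, and 7 of the 8 fits without 1 library are open.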

How the data were processed

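Total RNA was isolated from microdissected tissue on spin columns, per the labels' protocols. The authors deposited whole-number read counts for each Ensembl gene. STAR 2.3.0e, featureCounts 1.4.6-p1 and the build mm10 are named in the submitters' processing notes. Their settings, the annotation and strand use were not given in the sources used here. The 5 summary rows, all 0, were left out. Symbols, positions and exon lengths came from GENCODE M21 (GRCm38, the assembly of mm10), which matched 36602 of 38355 identifiers, and promoter windows from RefSeq (GRCm38.p6), which held all 10 genes.

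KO and WT libraries (4 each, grouped by title) entered edgeR 4.0.16 (R 4.3.3), using filterByExpr, TMM factors (0.991 to 1.012), a robust quasi-likelihood fit on group, and a Benjamini-Hochberg threshold of 0.05 over 16068 genes. Each SE comes from the fold change and the square root of its F value. CPM used TMM-scaled library sizes, and correlations used log2 CPM (prior count 2). The fit was tested on simulated data. Alternatives were RLE factors, library totals, no filter or a filter of 1 CPM in 4 libraries, DESeq2 1.42.0, limma-voom (limma 3.58.1) with weights per library, a replicate block, fits without each library, and a marker covariate.

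The 10 genes and all lists were chosen with earlier results of these data known. Named were the 10 genes, the other tested RGS genes, in each pathway list the called genes and up to 3 with the smallest p, tested genes within 500 kb of Rgs4 and the 5 most similar profiles. Some genes the rule named are not reported here. At the smallest total 1 CPM is 23.1 counts. Libraries of a group differed by more than sampling noise and all were counted. Nothing in the labels says that they are separate embryos, so p-values measure the spread between these libraries, which may be technical.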

Additional observations from a re-analysis of the deposited data

Results flagged for a closer look

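Among 36 groups of 4 libraries, taken over 18 RGS genes, 2 held a library far from the other 3, where chance flags about 1 group in 20. Rgs14, an R12 gene, stood at 1.32 CPM in KO replicate 2 and at 0.759 to 0.831 CPM in the other KO libraries. Rgs18 stood at 1.53 CPM in KO replicate 4 and at 1.16 CPM in each of the other 3. Both genes are near 1 CPM and neither is among the 10 genes. None of the 20 groups of the 10 genes had such a library.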

How the results depend on the processing

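The fall of Rgs4 kept its direction in all 16 alternatives. The 7 fits that lost the call by leaving out a library were those without WT replicate 2, 3 or 4 or any KO replicate, so the count of the 10 genes called ranged from 0 to 1 over the fits without 1 library, and it was 0 with the marker covariate. Leaving out 1 library also removes a residual degree of freedom, and the cause was not otherwise tested. Over all genes these fits called 12 to 112 lower and 3 to 21 higher, with the highest of both without WT replicate 1. DESeq2 called 81 lower and 22 higher, limma-voom 102 and 23, and the marker covariate 1 and 0. For the pathway lists the lower calls ranged from 1 to 2 without 1 library (2 without WT replicate 1), and were 2 with limma-voom and 0 with the marker covariate. By coding length Rgs4 took place 1 in WT in place of 3. By Spearman's rho 3 of the 5 genes most like Rgs4 were shared. The 9 paralogues described here stayed uncalled in all alternatives. With the marker covariate Rgs3, Rgs8 and Rgs16 had log2 fold changes of −0.11, −0.08 and −0.10.

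Whether same-numbered libraries are paired is not given in the labels. Same-numbered WT and KO libraries had deviations correlated at −0.108, 0.282, −0.187 and −0.007. Differently numbered ones ranged from −0.492 to 0.33, so these values cannot decide whether libraries were paired. A replicate block called 14 lower and 2 higher genes, with Rgs4 at −0.89 (edgeR adjusted p = 0.00602). Counts limit Rgs7, Rgs10 and Rgs17 most, with as few as 109 reads in a library.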
